A study of Homo sapiens with 9 samples.

Results

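Amino acid transporters were followed in undifferentiated Caco-2 (uCaco-2) cells, the proliferating state of a human colon adenocarcinoma line, after chemical activation of hypoxia-inducible factor (HIF) signaling. The members were the rows of the deposited count table that carry 10 named gene symbols, SLC7A11, SLC7A5, SLC3A2, SLC1A5, SLC1A4, SLC38A1, SLC38A2, SLC7A1, SLC7A8 and SLC36A1, of 60591 symbols in all. All 10 passed the filter on low counts that left 15944 tested genes. Cells received 300 μM cobalt(II) chloride (CoCl2), 5 μM of an oxyquinoline derivative (OD), or neither in the control, for 24 h and with 0.5% DMSO in every condition. Each condition had 3 libraries of polyadenylated RNA that the methods call biological replicates, so p-values measure the spread between cultures of 1 cell line. The comparisons asked which transporter genes respond to each HIF activator and where the activators differ.

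Amino acids cross membranes through carriers that differ in substrate and in coupling. SLC3A2 (CD98) is a heavy chain that brings light chains of the SLC7 family to the plasma membrane, among them SLC7A5 (LAT1) and SLC7A8 (LAT2), exchangers of large neutral amino acids, and SLC7A11 (xCT), which takes up cystine in exchange for glutamate and so feeds glutathione synthesis. SLC1A5 (ASCT2) and SLC1A4 (ASCT1) are sodium-dependent exchangers of small neutral amino acids such as alanine and serine, and SLC1A5 also carries glutamine. SLC38A1 (SNAT1) and SLC38A2 (SNAT2) concentrate neutral amino acids with sodium, SLC7A1 (CAT-1) carries arginine and lysine, and SLC36A1 (PAT1) moves small neutral amino acids with protons across apical and lysosomal membranes. Several of these genes are known targets of ATF4, the transcription factor of the integrated stress response, and SLC7A11 is also a known target of NRF2, the factor of the oxidative stress response.

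Promoter windows are shown because ATF4 binds C/EBP-ATF response elements, whose core was searched here as TGATGNAA, with N as any base, on both strands. Each window runs from 250 bases before to 50 bases after a transcript start, 300 bases in all, from RefSeq on GRCh38.p14. The letters were found in 3.62% of 35116 such windows from 27305 genes, and in 5 of the 19 windows of the members (26.3%). The 19 windows came from 9 genes and some of SLC7A8 overlap, so they are not separate units. Several members are known ATF4 targets, so the shares are a description. The windows with a match belonged to SLC3A2, SLC1A5, SLC1A4, SLC38A1 and SLC7A1, and the match began at positions 38, -97, -7, -4 and 8 in turn, where 1 is the first transcribed base. The window of SLC38A2, without these letters, is printed beside them. Sequence outside the windows was not searched, so a gene without a match here may hold the letters elsewhere. SLC3A2, SLC1A5, SLC1A4 and SLC38A1 also had windows without a match, which are not printed. For these genes the printed window lies downstream of another start of the gene whose window had no match. Capitals mark the match, the line of each gene reads 5′ to 3′ on its own strand, and for SLC3A2 and SLC1A4 the match lies on the other strand.
SLC3A2, chr11:62881449-62881748, plus strand: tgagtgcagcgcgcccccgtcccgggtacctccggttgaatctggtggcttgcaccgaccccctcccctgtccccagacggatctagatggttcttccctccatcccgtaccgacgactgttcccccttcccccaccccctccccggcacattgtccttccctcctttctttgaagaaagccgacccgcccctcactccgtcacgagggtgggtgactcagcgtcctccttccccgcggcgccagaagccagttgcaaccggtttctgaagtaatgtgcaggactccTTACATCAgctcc
SLC1A5, chr19:46784765-46785064, minus strand: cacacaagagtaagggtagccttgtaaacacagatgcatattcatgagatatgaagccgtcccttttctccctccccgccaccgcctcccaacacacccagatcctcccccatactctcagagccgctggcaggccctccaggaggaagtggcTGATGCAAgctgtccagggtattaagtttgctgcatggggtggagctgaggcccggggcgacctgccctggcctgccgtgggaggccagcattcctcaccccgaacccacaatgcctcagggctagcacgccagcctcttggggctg
SLC1A4, chr2:64989149-64989448, plus strand: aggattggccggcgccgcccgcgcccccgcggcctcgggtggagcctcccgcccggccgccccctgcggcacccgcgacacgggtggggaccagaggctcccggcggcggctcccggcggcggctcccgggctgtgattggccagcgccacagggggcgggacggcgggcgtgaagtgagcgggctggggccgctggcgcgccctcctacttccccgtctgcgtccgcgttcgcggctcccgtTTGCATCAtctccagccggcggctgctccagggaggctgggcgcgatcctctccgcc
SLC38A1, chr12:46266467-46266766, minus strand: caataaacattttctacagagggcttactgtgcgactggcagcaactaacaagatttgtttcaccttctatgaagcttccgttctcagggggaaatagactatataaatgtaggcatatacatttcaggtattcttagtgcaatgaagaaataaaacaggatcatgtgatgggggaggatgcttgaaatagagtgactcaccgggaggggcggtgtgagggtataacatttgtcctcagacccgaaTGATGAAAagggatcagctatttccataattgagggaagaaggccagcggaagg
SLC7A1, chr13:29595639-29595938, minus strand: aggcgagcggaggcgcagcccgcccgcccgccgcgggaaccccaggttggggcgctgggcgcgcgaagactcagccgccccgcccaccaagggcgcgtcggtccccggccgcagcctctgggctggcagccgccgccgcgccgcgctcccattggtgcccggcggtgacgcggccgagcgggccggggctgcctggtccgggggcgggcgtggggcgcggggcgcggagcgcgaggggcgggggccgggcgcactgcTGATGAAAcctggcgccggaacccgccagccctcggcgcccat
SLC38A2, chr12:46372724-46373023, minus strand: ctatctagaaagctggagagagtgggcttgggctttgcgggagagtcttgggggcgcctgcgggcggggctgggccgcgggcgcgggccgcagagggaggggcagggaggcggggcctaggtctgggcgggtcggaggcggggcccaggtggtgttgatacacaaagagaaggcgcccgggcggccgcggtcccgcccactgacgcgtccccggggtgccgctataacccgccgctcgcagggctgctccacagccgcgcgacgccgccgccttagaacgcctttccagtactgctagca

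A match in these letters is a description of the sequence and not of binding. The 5 genes with a match included members that moved in opposite directions, as the values show. The letters of the antioxidant response element, TGACNNNGC, were in 4 of the 19 windows (21.1%) against 13.3% of all windows. The HIF core letters ACGTG and GCGTG were in 7 (36.8%) and 11 (57.9%) of the members' windows, against 21.4% and 36.5% of all windows. SLC7A11 had no window in the table used.

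Sequencing depth ranged from 15998136 to 24209427 counts per library, and the counts of the members from 226 to 54523. The standard errors (SE) of the members' log2 fold changes lay between 0.038 and 0.075. Levels are given as CPM, which are counts scaled by the library size multiplied by its TMM factor. The CPM of all genes therefore do not add up to the same total in every condition, and they are not shares of all counts. The factors were 1.11 to 1.12 in control, 0.770 to 0.795 with CoCl2 and 1.14 to 1.15 with OD. With library size alone, without these factors, the median of all genes shifted to -0.55 in CoCl2 against control and to -0.60 in CoCl2 against OD on the log2 scale. Of the intestinal epithelial markers 9 of 10 were tested and CDX1 was at 0 counts in all 9 libraries. Their summed level was 10354 to 10828 CPM in control, 12202 to 13084 with CoCl2 and 9920 to 10437 with OD. Most of this sum was KRT8 and KRT18, at means of 4983 and 2867 CPM in control. At an adjusted p below 0.05 in the edgeR fit, 6 of the 9 were higher with CoCl2 and 3 were lower. Only VIL1 and KRT20 also passed a log2 fold change of 1 in size, both downregulated. Of the exonic bases of VIL1, 44.2% overlap a gene on the opposite strand. Fibroblast markers summed to 18.0 to 22.2, 10.8 to 12.2 and 28.1 to 29.4 CPM in control, CoCl2 and OD, with 3 of 5 tested, and the endothelial sum stayed between 2.25 and 3.41 CPM, with 2 of 3 tested. Of 4 leukocyte markers only LYZ was tested, and their sum was 33.0 to 37.9, 49.7 to 53.4 and 33.0 to 37.2 CPM. The part of these marker levels in the transporter results was not tested, and in bulk RNA a change in the kinds of cells and a change in RNA per cell cannot be told apart. The HIF targets VEGFA, PDK1, NDRG1 and BNIP3 were upregulated by both agents, and CA9 was too low to test.

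CoCl2 differentially expressed 4 of the 10 transporter genes, where a call asked for both an adjusted p below 0.05 and a log2 fold change larger than 1 in either direction. SLC7A11, SLC38A2 and SLC3A2 were upregulated 10.8-fold, 6.09-fold and 4.13-fold, and SLC38A1 was downregulated 2.34-fold. Over all tested genes 43.2% were called in this comparison, 19.9% up and 23.4% down, so that the members' share was close to that of all genes. An adjusted p below 0.05 without the fold threshold was reached by 9 members with CoCl2, against 83.2% of all genes, and by 9 with OD, against 65.6%. OD differentially expressed 3 of the 10, all upregulated, namely SLC1A4 (4.79-fold), SLC7A11 (4.34-fold) and SLC7A8 (2.19-fold), where 13.3% of all genes were called, 9.09% up and 4.16% down. The median log2 fold change of the 10 members was 0.52 with CoCl2 and 0.59 with OD, against -0.049 and -0.010 over all tested genes. The members were chosen with earlier results of these data known, so these medians are a description. SLC7A11 was the only member called with both agents. The plot of levels by library shows how little the 3 libraries of a condition differed beside these changes.

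**Figure D1:**
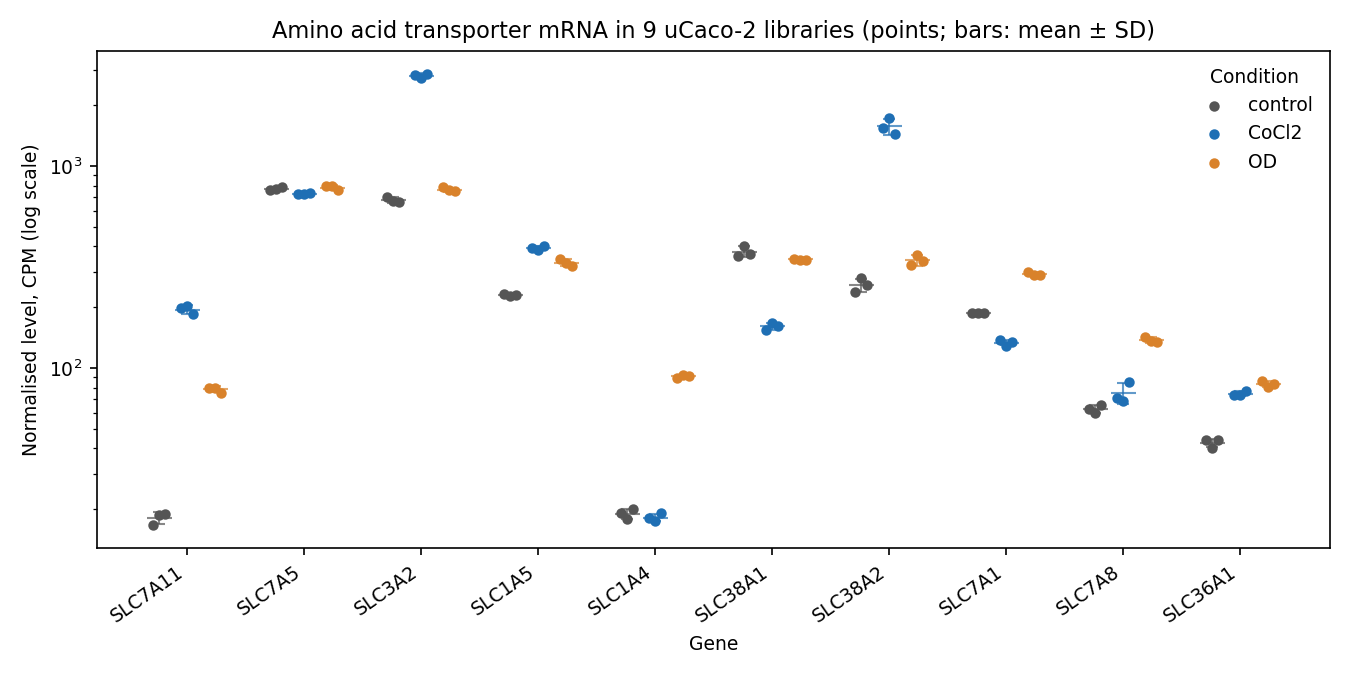
Levels of the 10 transporter genes along the x axis, in CPM on a log y axis, with 1 point for each of the 9 libraries, colored by condition, and bars for the mean ± SD (n = 3). SLC7A11 rises from 16.6 to 18.8 CPM in control to a mean of 78.3 with OD and 195 with CoCl2, SLC38A2 and SLC3A2 stand out with CoCl2, and SLC1A4 stands out with OD.

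The heavy chain SLC3A2 (chr11:62856004-62888880, plus strand, GRCh38) was at 703, 669 and 665 CPM in the control libraries, at 2825, 2718 and 2859 CPM with CoCl2 and at 784, 759 and 750.0 CPM with OD. All CoCl2 libraries lay far above the rest, and the OD libraries lay only just above control. CoCl2 upregulated SLC3A2 by 2.04 on the log2 scale (SE 0.040, edgeR adjusted p = 2.03e-49). With OD it was 0.17 (SE 0.039, adjusted p = 0.000116), below the fold threshold. CoCl2 exceeded OD by 1.87 on the log2 scale (SE 0.040, adjusted p = 2.20e-47).

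SLC7A11, the cystine light chain (chr4:138164097-138242349, minus strand), was at 16.6, 18.7 and 18.8 CPM in control, at 197, 202 and 184 CPM with CoCl2 and at 80.0, 79.8 and 75.2 CPM with OD. The 3 conditions were fully separated, in the order control, OD, CoCl2. Its log2 fold change was 3.43 with CoCl2 (SE 0.058, adjusted p = 4.60e-53) and 2.12 with OD (SE 0.060, adjusted p = 1.28e-39). CoCl2 exceeded OD by 1.31 (SE 0.048, adjusted p = 9.29e-35), or by 0.76 with library size alone. Other genes overlap between 4.62 and 23.8% of the exonic bases of 4 of the 10 members, most for SLC1A5, and SLC7A11-AS1, an antisense gene, overlaps 8.97% of those of SLC7A11. SLC7A11-AS1 had 4 to 8 counts in control, 80 to 138 with CoCl2 and 17 to 29 with OD, and whether its reads entered the count of SLC7A11 was not tested.

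SLC7A5, the light chain for large neutral amino acids (chr16:87830023-87869507, minus strand), was at 761, 769 and 788 CPM in control, at 723, 728 and 734 CPM with CoCl2 and at 793, 796 and 757 CPM with OD. The CoCl2 libraries lay slightly below all others, while OD and control overlapped. The log2 fold change with CoCl2 was -0.085 (SE 0.038, adjusted p = 0.0371). With OD it was 0.017 (SE 0.038, adjusted p = 0.707), with a 95% interval from -0.059 to 0.093. With library size alone the CoCl2 value was -0.59, beside a median of -0.55 for all genes under that scaling, and the value of its heavy chain was 1.54.

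SLC7A8, the other exchanger of large neutral amino acids among the members (chr14:23125295-23183674, minus strand), was at 62.8, 59.9 and 65.8 CPM in control, at 71.3, 68.9 and 85.5 CPM with CoCl2 and at 142, 136 and 135 CPM with OD. OD libraries were highest and did not overlap the rest, and the third CoCl2 library stood above the other 2. SLC7A8 was upregulated by OD, with a log2 fold change of 1.13 (SE 0.055, adjusted p = 2.51e-24). The log2 fold change with CoCl2 was 0.27 (SE 0.058, adjusted p = 4.04e-05), and it turned to -0.24 with library size alone. CoCl2 lay below OD by -0.86 on the log2 scale (SE 0.055, adjusted p = 3.09e-20).

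The sodium-dependent exchangers of small neutral amino acids moved apart. SLC1A4 (chr2:64988477-65023865, plus strand) was at 19.2, 17.8 and 20.0 CPM in control, at 18.0, 17.5 and 19.0 CPM with CoCl2 and at 89.2, 92.7 and 91.1 CPM with OD. Only the OD libraries stood apart, and control and CoCl2 overlapped. OD upregulated SLC1A4 with a log2 fold change of 2.26 (SE 0.060, adjusted p = 1.88e-41). With CoCl2 it was -0.057 (SE 0.075, adjusted p = 0.481), with a 95% interval from -0.21 to 0.093. SLC1A4 was 4.99-fold lower with CoCl2 than with OD (log2 -2.32, SE 0.062, adjusted p = 3.75e-42), the most negative difference between the agents among the 10 members.

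SLC1A5 (chr19:46774883-46788594, minus strand), known for glutamine uptake in proliferating cells, was at 232, 226 and 229 CPM in control, at 391, 385 and 401 CPM with CoCl2 and at 345, 332 and 318 CPM with OD. Every treated library was above every control library. Its log2 fold change was 0.78 with CoCl2 (SE 0.040, adjusted p = 9.25e-27) and 0.53 with OD (SE 0.040, adjusted p = 1.56e-18), neither past the fold threshold. CoCl2 exceeded OD by 0.24 (SE 0.040, adjusted p = 1.36e-07), a direction that turned to -0.30 with library size alone.

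The sodium-coupled transporters SLC38A1 and SLC38A2 moved in opposite directions with CoCl2. SLC38A2 (chr12:46358188-46372773, minus strand) was at 238, 277 and 257 CPM in control, at 1544, 1727 and 1437 CPM with CoCl2 and at 322, 363 and 339 CPM with OD. The CoCl2 libraries were several-fold above all others, and the OD libraries lay above control without overlap. The log2 fold change of SLC38A2 was 2.61 with CoCl2 (SE 0.074, adjusted p = 3.84e-13). With OD it was 0.41 (SE 0.072, adjusted p = 0.000244), which is 1.33-fold and not past the fold threshold. CoCl2 exceeded OD by 2.20 (SE 0.073, adjusted p = 2.18e-12).

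SLC38A1 (chr12:46183063-46270017, minus strand) was at 358, 402 and 367 CPM in control, at 154, 168 and 161 CPM with CoCl2 and at 347, 344 and 343 CPM with OD. The CoCl2 libraries were lowest by a wide margin, and the OD libraries lay just below control. CoCl2 downregulated SLC38A1 with a log2 fold change of -1.23 (SE 0.043, adjusted p = 1.47e-35). It was -0.12 with OD (SE 0.041, adjusted p = 0.00648). CoCl2 lay below OD by -1.10 on the log2 scale (SE 0.043, adjusted p = 4.69e-33). SLC38A1 and SLC38A2 are neighbours on chromosome 12 and are transcribed from the same strand.

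SLC7A1, the carrier of cationic amino acids (chr13:29509414-29595688, minus strand), was at 187.0, 187.1 and 187.0 CPM in control, at 138, 129 and 134 CPM with CoCl2 and at 297, 289 and 287 CPM with OD. Its libraries lay below control with CoCl2 and above control with OD, without overlap. For SLC7A1 the log2 fold change was -0.48 with CoCl2 (SE 0.042, adjusted p = 2.65e-16) and 0.64 with OD (SE 0.040, adjusted p = 5.66e-22), neither past the fold threshold. The difference between the agents was past it, at -1.12 for CoCl2 against OD (SE 0.042, adjusted p = 2.31e-34).

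SLC36A1, the proton-coupled carrier (chr5:151437046-151492379, plus strand), was at 43.8, 40.2 and 43.9 CPM in control, at 73.5, 73.2 and 77.0 CPM with CoCl2 and at 85.9, 80.8 and 83.1 CPM with OD. Both agents were above control, with OD slightly above CoCl2 and no overlap between the conditions. The log2 fold change was 0.81 with CoCl2 (SE 0.055, adjusted p = 2.47e-21) and 0.97 with OD (SE 0.053, adjusted p = 5.54e-25). The OD value was just under the fold threshold and was 1.003 without control replicate 1, where SLC36A1 was called. CoCl2 lay below OD by -0.16 (SE 0.051, adjusted p = 0.00380).

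**Figure D2:**
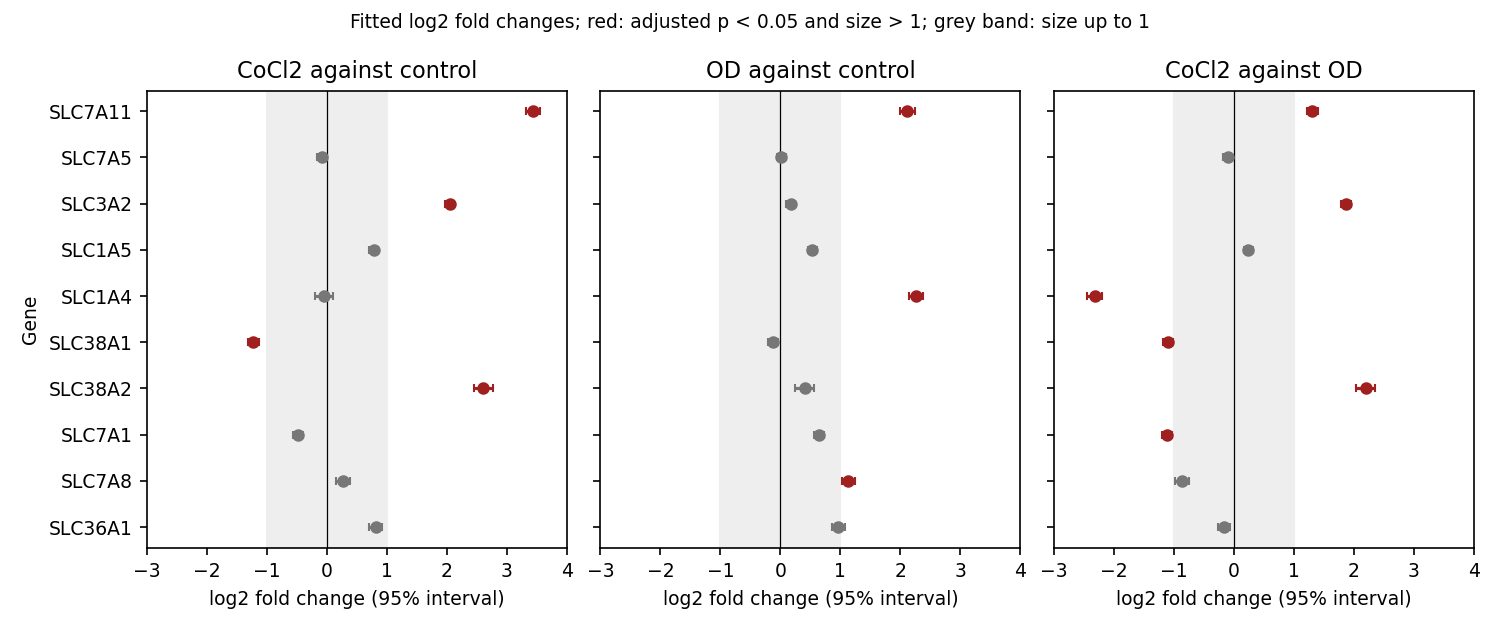
Log2 fold changes of the 10 transporter genes (rows) in 3 panels, 1 for each agent set against control and 1 for CoCl2 set against OD, with 95% intervals, red points for genes called and a grey band for sizes up to 1. The points run from -1.23 for SLC38A1 to 3.43 for SLC7A11 with CoCl2, from -0.12 for SLC38A1 to 2.26 for SLC1A4 with OD, and from -2.32 for SLC1A4 to 2.20 for SLC38A2 between the agents.

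Set against each other, the agents differed in 6 of the 10 transporter genes, against 41.3% of all genes. CoCl2 gave the higher level in 17.5% of all genes and the lower level in 23.8%. SLC3A2, SLC38A2 and SLC7A11 were higher with CoCl2, and SLC1A4, SLC7A1 and SLC38A1 were higher with OD. The adjusted p alone was below 0.05 in all 10, against 83.5% of all genes. The libraries of the conditions did not overlap in 28 of the 30 comparisons of a member, the exceptions being SLC7A5 in OD against control and SLC1A4 in CoCl2 against control. Over all genes the libraries were without overlap in 83.4% for CoCl2 against control, 68% for OD against control and 83.8% for CoCl2 against OD.

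Per kilobase of exon, over the joined exons of all annotated transcripts of a gene, the order of the transporter mRNAs changed with the condition. The order of genes within a condition depends on these lengths, and other lengths were not tested. In control SLC7A5 was highest at 162 ± 2.98 CPM per kb (SD, n = 3), followed by SLC3A2 at 106 ± 3.27 and SLC1A5 at 68.7 ± 0.957. SLC7A11 was lowest at 1.87 CPM per kb, and only SLC38A2 (39.5 ± 3.05) and SLC38A1 (37.5 ± 2.33) overlapped among neighbours in the order. With CoCl2, SLC3A2 led at 438 ± 11.5 CPM per kb and SLC38A2 came next at 241 ± 22.5, ahead of SLC7A5 at 153 ± 1.11. SLC7A11 moved up to 20.2 ± 0.960 CPM per kb, above SLC7A1 at 17.4, and SLC1A4 was last at 2.62. With OD the leading genes were ordered as in control, with SLC7A5 at 164 ± 4.52, SLC3A2 at 120 ± 2.80, SLC1A5 at 99.5 ± 4.10 and SLC38A2 at 52.4 ± 3.17 CPM per kb. SLC7A11, at 8.12 CPM per kb, remained the lowest, below SLC36A1 at 11.9 and SLC1A4 at 13.1. No neighbours in the order overlapped under either agent. The 10 genes summed to 460 ± 2.24 CPM per kb in control, 1029 ± 7.80 with CoCl2 and 564 ± 11.8 with OD, and they took 0.290 to 0.297%, 0.472 to 0.493% and 0.364 to 0.376% of all counts.

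Ratios between genes of the same library do not depend on the scaling factors, and 5 were computed per kilobase. The SLC7A5 to SLC3A2 ratio, light chain to heavy chain, was 1.53 ± 0.0708 in control, 0.349 ± 0.00896 with CoCl2 and 1.37 ± 0.0303 with OD (SD, n = 3). It was thus 4.38-fold lower with CoCl2 than in control. The SLC38A2 to SLC38A1 ratio was 1.05 ± 0.0285 in control, 15.0 ± 1.10 with CoCl2 and 1.52 ± 0.0986 with OD. Among the 5 ratios it moved most with CoCl2, by 3.83 on the log2 scale, and it moved by 0.53 with OD. The SLC1A5 to SLC1A4 ratio went in opposite directions, from 25.2 ± 1.26 in control to 45.0 ± 1.05 with CoCl2 and 7.59 ± 0.416 with OD. The SLC7A8 to SLC7A5 ratio was 0.0646 ± 0.00242, 0.0821 ± 0.00928 and 0.140 ± 0.00390 in control, CoCl2 and OD. The SLC7A11 to SLC3A2 ratio was 0.0177 ± 0.00172, 0.0461 ± 0.00330 and 0.0679 ± 0.00162, and here OD was higher than CoCl2, the reverse of their order for SLC7A11 itself. The libraries did not overlap in any of the 15 comparisons, and each exact two-sided permutation test gave p = 0.1 (adjusted 0.1), the smallest that 3 against 3 allows.

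**Figure D3:**
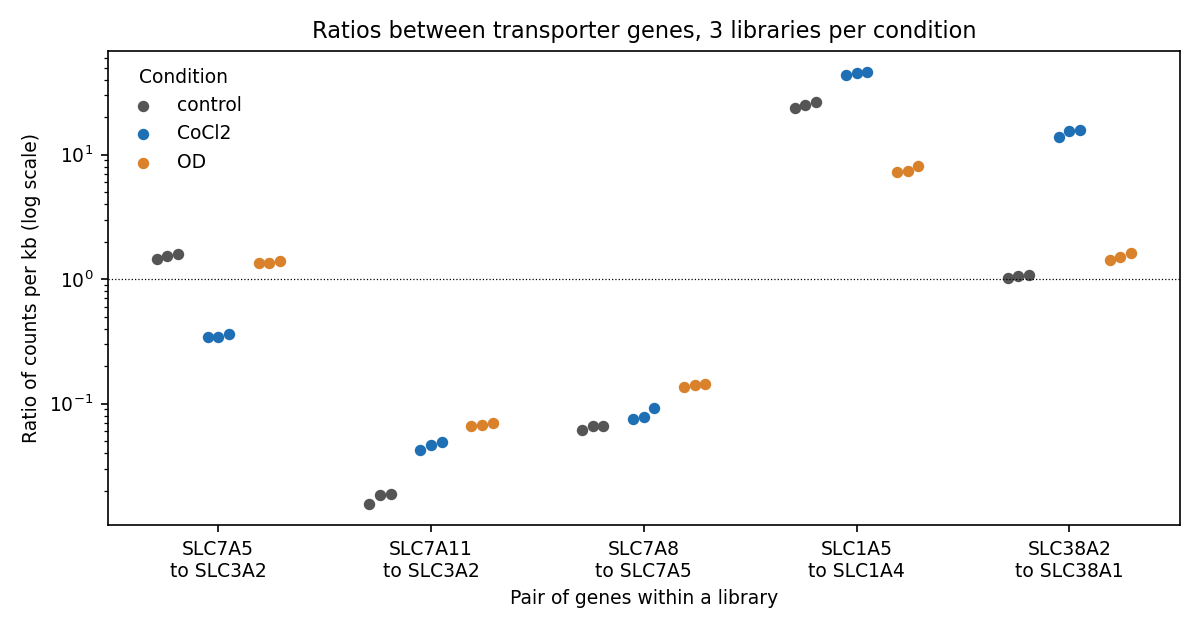
The 5 ratios between transporter genes along the x axis, each from counts per kb of exon, on a log y axis, with 1 point per library, colored by condition and drawn from lowest to highest. The 3 conditions are separated in every ratio, and the widest gap is that of SLC38A2 to SLC38A1, at 1.05 in control and 15.0 with CoCl2.

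SLC3A2 pairs with 6 light chains, of which SLC7A6, SLC7A7 and SLC7A10 are not among the 10 members and SLC7A10 had at most 1 count in any library. The light chains together were at 269 ± 1.64 CPM per kb in control, 358 ± 2.77 with CoCl2 and 332 ± 7.04 with OD. Light-chain mRNA per SLC3A2 mRNA was 2.54 ± 0.0663 in control, 0.818 ± 0.0205 with CoCl2 and 2.78 ± 0.0524 with OD. At these exonic lengths the heavy chain thus exceeded its light chains with CoCl2 only. The SLC3A2 length of 6.392 kb joins the exons of 41 annotated transcripts. A shorter length would raise its level per kb in every condition, and other lengths were not tested. Within the light chains, SLC7A5 made up 60.3% in control, 42.7% with CoCl2 and 49.4% with OD. SLC7A7, which exports cationic in exchange for neutral amino acids at the basolateral membrane, made up 27.0%, 43.3% and 35.1%. The share of SLC7A11 was 0.695%, 5.63% and 2.44%, and that of SLC7A8 was 3.89%, 3.50% and 6.92%. SLC7A6 had 8.12%, 4.91% and 6.12%, with 55.6% of its exonic bases under genes of the opposite strand. The shares are of mRNA per exonic length and not of protein or surface complexes.

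**Figure D4:**
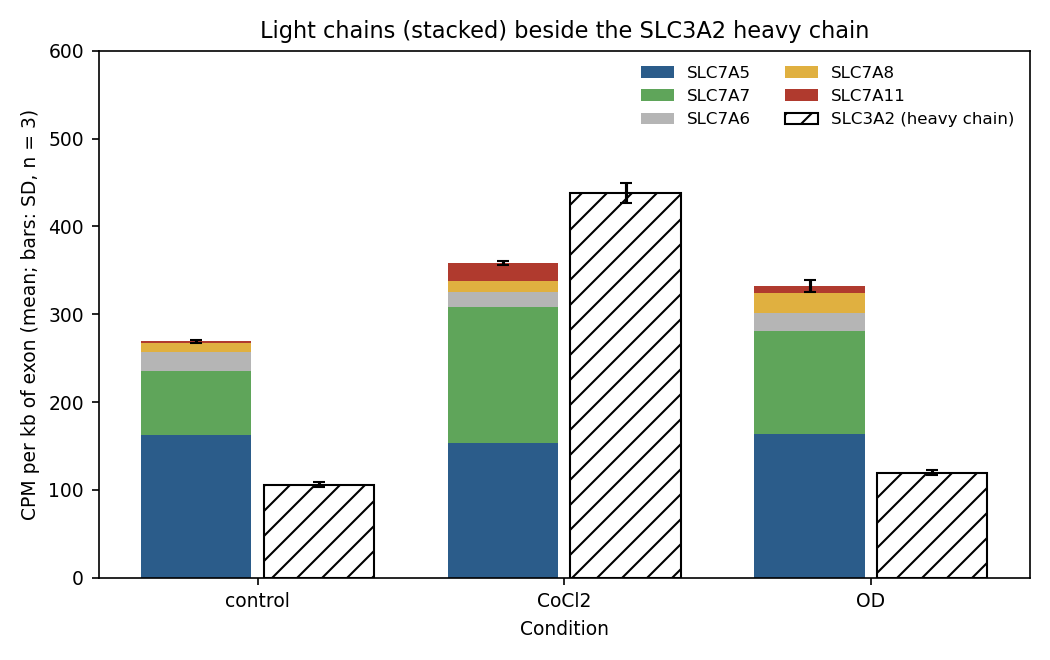
Stacked bars of the light chains beside the hatched bar of SLC3A2 in each condition, in CPM per kb of exon from 0, as means of 3 libraries with the SD of the stack and of SLC3A2. The SLC3A2 bar rises from 106 in control to 438 with CoCl2, above the stack of 358, and is at 120 with OD, below the stack of 332.

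The other amino acid transporters of the plasma membrane or lysosome were a list of 42 genes, of which 26 were tested. CoCl2 upregulated 4 and downregulated 11 of them, and their median log2 fold change was -0.60, against 0.52 for the 10 members. Members and list were chosen with earlier results of these data known, so the difference in medians is a description. Of the 11, SLC1A2 (5 to 14 counts in control against 0 to 1 with CoCl2) and SLC7A4 (1 to 5 against 0 to 1) were near the detection limit. Of all tested genes, CoCl2 upregulated 19.9% and downregulated 23.4%. OD upregulated 5 and downregulated 1, with a median of 0.24, beside 9.09% and 4.16% of all tested genes. Of the 5, SLC36A2 (0 against 1 to 2 counts), SLC6A19 (5 to 7 against 11 to 19 counts) and SLC7A4 (1 to 5 against 10 to 16 counts) were near the detection limit in control and OD libraries. With at least 10 counts in every library 2 were upregulated by OD, and without control replicate 2, control replicate 3 or OD replicate 3 the number was 3. Upregulated by CoCl2 were SLC38A6 (log2 fold change 1.37), the cationic amino acid exchanger SLC7A7 (1.09) and SLC66A1 (1.07), the lysosomal exporter of cationic amino acids. SLC38A4, a system A transporter, was downregulated by CoCl2 from a mean of 19.1 to 2.21 CPM (log2 fold change -3.11), as was SLC43A1, a carrier of large neutral amino acids (-2.61). The glutamine transporter SLC38A3 and the glycine transporter SLC6A9 had opposite calls under the agents. SLC38A3 changed by -2.21 with CoCl2 and 1.02 with OD, and SLC6A9 by -1.99 and 1.42. The glutamate transporter SLC1A3 was downregulated by both, by -1.02 with CoCl2 and -1.10 with OD. SLC36A2, named after its values were seen, had 0 counts in all control libraries, 29 to 59 with CoCl2 and 1 to 2 with OD. Set against the 3 counts per library that a count of 0 allows, SLC36A2 was at least 15.9-fold higher with CoCl2 than in control.

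**Figure D5:**
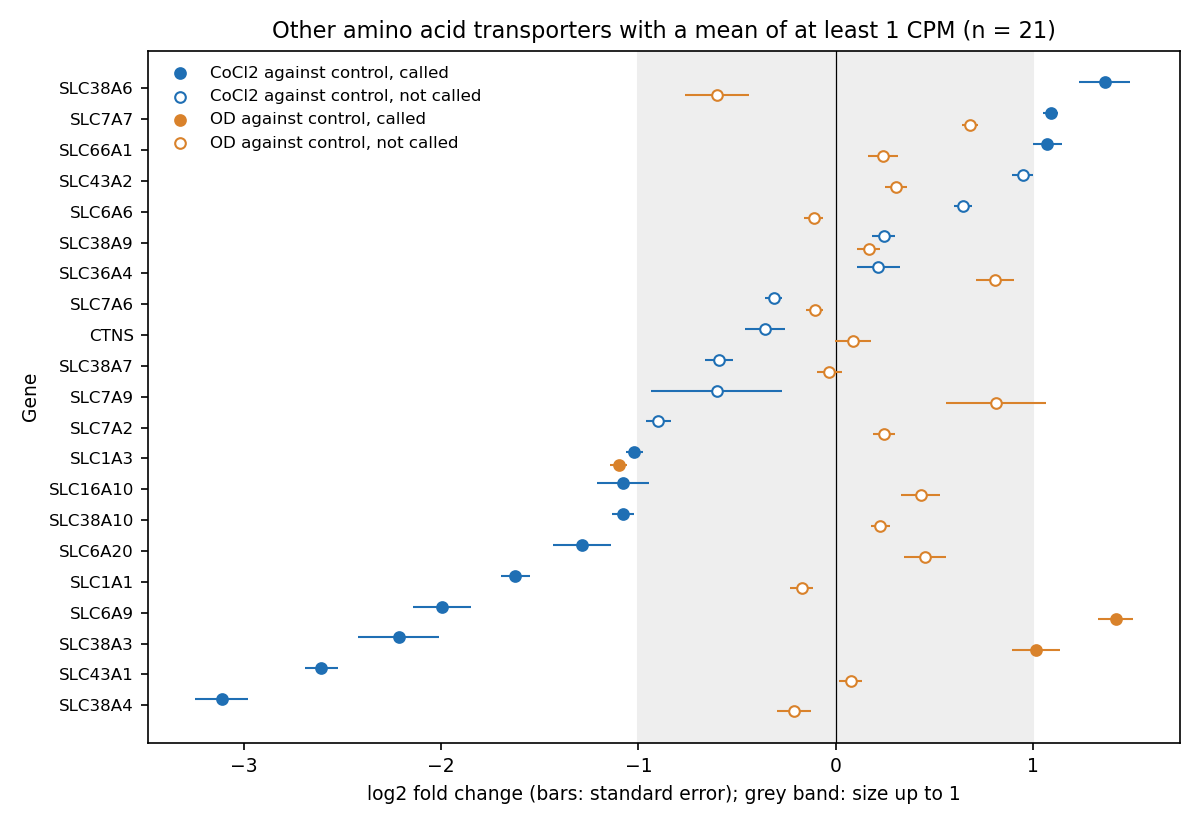
Log2 fold changes of the 21 other amino acid transporters with a mean of at least 1 CPM (rows) for CoCl2 and OD against control, with bars for the SE, filled points for genes called and a grey band for sizes up to 1. The CoCl2 points run from -3.11 for SLC38A4 to 1.37 for SLC38A6, and the OD points from -1.10 for SLC1A3 to 1.42 for SLC6A9.

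Mitochondrial amino acid carriers were tested in 11 of 12 cases, with 3 up and 4 down with CoCl2 (median log2 fold change -0.65) and 1 up and 1 down with OD (median 0.12), of which 1 was called without OD replicate 1. The shares of all tested genes were 19.9% up and 23.4% down with CoCl2, and 9.09% and 4.16% with OD. SFXN2 (-3.75), the ornithine carrier SLC25A15 (-2.61) and the glutamate carrier SLC25A22 (-1.92) were downregulated by CoCl2. The glutamate carrier SLC25A18 (2.22), SLC25A44 (1.44), a carrier of branched-chain amino acids, and SLC25A38 (1.35), the glycine carrier for heme synthesis, were upregulated. OD upregulated SLC25A29 (1.42), a carrier of basic amino acids, and downregulated SLC25A15 (-1.02).

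Genes of the ATF4 and integrated stress response list, all 22 tested, included 8 upregulated and 2 downregulated with CoCl2 and 8 upregulated and 0 downregulated with OD, with medians of 0.74 and 0.85. Among all tested genes 19.9% were called up and 23.4% down with CoCl2, and 9.09% and 4.16% with OD. The list's share called in either direction with CoCl2 was close to the 43.2% of all genes. DDIT4, an inhibitor of mTORC1 signaling that is also a known HIF target, was upregulated by 4.16 and 4.04 on the log2 scale with CoCl2 and OD. The phosphatase subunit PPP1R15A changed by 3.53 and 1.03, the stress sensor SESN2 by 2.75 and 1.46, and the transcription factor ATF3 by 2.46 and 1.90. The kinase EIF2AK2 (-1.38) and the serine synthesis enzyme PSPH (-1.06) were downregulated by CoCl2. Asparagine synthetase, ASNS, was upregulated by OD (2.10), from only 0.898 CPM in control, and 49.3% of its exonic bases overlap a lncRNA of the same strand. ATF4 itself, outside the naming rule, had log2 fold changes of 0.88 and 0.52, under the fold threshold.

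Glutathione synthesis and NRF2 genes were upregulated in 9 of 12 cases with CoCl2 and in 1 with OD, with medians of 2.05 and 0.20, and 9 of the 12 were higher with CoCl2 than with OD. The matching shares of all tested genes were 19.9%, 9.09% and 17.5%. The leading genes were heme oxygenase HMOX1 (5.09 with CoCl2 and 1.17 with OD), the glutamate-cysteine ligase subunit GCLM (3.55 with CoCl2) and the thioredoxin reductase TXNRD1 (3.26 with CoCl2). GSS, glutathione synthetase, was the 1 gene downregulated (-1.78 with CoCl2).

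Glutamine and glutamate enzymes, all 14 tested, showed 1 upregulated and 4 downregulated with CoCl2 and 1 each with OD, with medians of -0.58 and -0.17. The shares of all tested genes were 19.9% and 23.4% with CoCl2, and 9.09% and 4.16% with OD. The 1 enzyme upregulated with CoCl2 became 2 without control replicate 2 or CoCl2 replicate 3. Glutamine synthetase GLUL was upregulated by CoCl2 (1.72), and CAD of pyrimidine synthesis (-2.16) and the proline synthesis enzymes PYCR1 (-1.92) and ALDH18A1 (-1.29) were downregulated. CAD was also downregulated by OD (-1.17), and ASNS was the 1 gene upregulated by OD. Of a list for amino acid sensing upstream of mTORC1, which also held Rag GTPases, MTOR and RPTOR, 23 of 24 genes were tested. They were 8 up and 1 down with CoCl2 and 4 up and 0 down with OD (medians 0.17 and 0.29). With CoCl2 the share of this list called in either direction was close to the 43.2% of all tested genes, and with OD 13.3% of all genes were called. Beside SESN2, CoCl2 upregulated BMT2 (2.40), a sensor of S-adenosylmethionine also called SAMTOR, and CASTOR2 (2.31), a paralog of an arginine sensor. CoCl2 downregulated NPRL3 (-1.08), a subunit of the GATOR1 complex. OD upregulated RRAGD (2.76), a Rag GTPase, and FNIP2 (1.47), which acts on Rag GTPases.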

How the data were processed

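Messenger RNA of uCaco-2 cells was sequenced as 75-nucleotide single reads from stranded libraries. The authors checked reads with FastQC 0.11.9, trimmed them with cutadapt 2.10, aligned them with STAR to GRCh38 and made a count matrix from a GENCODE annotation. How strand and shared reads were handled is not given in the sources used here, so counts of genes that overlap others are uncertain. The deposited values are raw counts per gene symbol. Using R 4.3.3 and edgeR 4.0.16, low counts were filtered, TMM factors were taken and a robust quasi-likelihood model was fitted over the 9 libraries, 1 mean for each condition, with Benjamini-Hochberg adjustment over 15944 genes. CPM are TMM-scaled counts. Exonic lengths and overlaps come from a later GENCODE release on GRCh38, and 88.7% of tested symbols matched. A length joins the exons of all transcripts of a gene. The rule for naming genes took all 10 members and, per list and comparison with control, up to 3 called genes per direction with the largest change among those with a mean of at least 1 CPM. For SLC7A11 and SLC7A5 it also took the 5 genes with the nearest profile. The members and lists were chosen with earlier results of these data known. Alternatives covered scaling, filters, the tool, the samples fitted, the threshold and leaving out each library. The edgeR fit was tested on simulated data with known changes. Few genes were changed there, as many up as down. The simulation therefore could not check the scaling where many genes change, as with CoCl2. After the condition mean of each gene's log2 level was subtracted, same-numbered libraries correlated between -0.0049 and 0.038 in 9 pairs. The numbers were therefore not taken as pairs. Replicates differed by more than sampling noise (chi-square per degree of freedom 1.74 to 3.05). Limits from counts cover counting error only.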

Additional observations from a re-analysis of the deposited data

How the results depend on the processing

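With the adjusted p alone as the threshold, 13260, 10466 and 13311 genes were called in CoCl2 against control, OD against control and CoCl2 against OD, in place of 6891, 2113 and 6580, and 9, 9 and 10 members in place of 4, 3 and 6. For OD against control, 1134 genes were called with at least 10 counts in every library and 965 with glmTreat against a log2 fold change of 1, where fewer genes are tested or the threshold itself is tested. With library size alone SLC7A8 turned to -0.24 in CoCl2 against control and SLC1A5 to -0.30 in CoCl2 against OD. That scaling also split the calls differently, with 1833 up and 5839 down in place of 3167 and 3724 for CoCl2 against control, and 1351 and 6026 in place of 2790 and 3790 for CoCl2 against OD. It took SLC7A11 in CoCl2 against OD below the fold threshold, at 0.76, brought SLC7A8 past it in that comparison, at -1.41, and brought SLC36A1 past it in OD against control, at 1.01. Of 600 alternatives for a member, 579 kept direction and side of the threshold. Among the alternatives, the adjusted p alone and glmTreat keep the fitted fold changes, so they could not change a direction. Leaving out a library of a condition not compared could act only through the shared filter, scaling and spread. Ratios have no fold threshold, and all 120 alternatives for a ratio kept direction and moved by no more than the SD within conditions. Ratios of raw counts did so by construction, because the lengths cancel in a difference between conditions. Leaving out 1 library in turn gave 6908 to 7207, 2150 to 2274 and 6572 to 6917 genes and 4, 3 to 4 and 6 members. With the replicate number as a block, 6901, 2115 and 6568 genes and 4, 3 and 6 members were called, though the numbers share no stated origin. Of 360 list counts, 338 stayed within 1.5 times. The SE of a member's log2 fold change was at most 0.075, for SLC1A4 in CoCl2 against control, and 3 libraries per condition limit every permutation p to 0.1 or more.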

Other observations

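The genes whose profile lay nearest to SLC7A11 were sought among 10421 tested genes (mean level 5 CPM or more), by the Euclidean distance of their log2 levels over 9 libraries, each level taken relative to the control mean. KDM3A, a histone demethylase, was nearest at a distance of 0.267, with log2 fold changes of 3.38 with CoCl2 and 2.04 with OD. MXD1, a transcriptional repressor of the MAX network, followed at 0.368 with log2 fold changes of 3.35 and 2.32. STYK1 was at 0.431, CTH, cystathionine gamma-lyase, at 0.500 and IRS2, an adaptor of insulin receptor signaling, at 0.557. The selection on these libraries fixes that the genes share its order of conditions, so the distances are a description.

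The genes nearest to SLC7A5 were UQCRC1, a subunit of respiratory complex III, at a distance of 0.0986, ANKIB1 at 0.116, ELP5 at 0.121, STT3A, a catalytic subunit of oligosaccharyltransferase, at 0.135 and ARFIP2 at 0.136. Their log2 fold changes lay between -0.11 and -0.023 with CoCl2 and between -0.00092 and 0.048 with OD. A profile without change is shared by many genes, so these distances are a description.

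SLC7A5P1, a pseudogene of SLC7A5, had 21 to 24 counts in control, 49 to 79 with CoCl2 and 19 to 33 with OD, while SLC7A5P2 was at 0 in all 9 libraries. How reads shared between SLC7A5 and its copies were counted was not tested.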
